A study of Mus musculus with 4 samples.

Results

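Kit, Stra8, Sohlh1, Sohlh2, Dmrt1 and Dmrtb1 are genes that carry male germ cells from differentiating spermatogonia into meiosis. They were chosen by name, for this role, and make up 6 of the 23980 genes in the table. Stranded sequencing of polyA(+) RNA was done on spermatocytes at the leptotene and zygotene stages (L/Z), the first of meiotic prophase, which had been purified by fluorescence-activated cell sorting (FACS). There were 4 libraries, 1 per genotype, all from F1 hybrids of C57BL6/J and MSM/Ms at 3 to 4 weeks of age. A Dnmt3L heterozygote and a Pld6 wild type (WT) served as the 2 controls, and a Pld6 knockout (KO) and a Dnmt3L KO were the mutants. Both Dnmt3L genotypes thus carry at least 1 mutant Dnmt3L allele, and the heterozygote is no wild type. The number of animals behind a library is not given in the sources used here. The study states that testes of both mutants hold no germ cells past the zygotene stage.

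Retinoic acid drives spermatogonia to differentiate and later to enter meiosis. Differentiating spermatogonia display KIT, the receptor tyrosine kinase for KIT ligand, under the basic helix-loop-helix factors SOHLH1 and SOHLH2. STRA8 is the retinoic acid-induced factor of meiotic entry, while the DM domain factors DMRT1 and DMRTB1 (DMRT6) control when spermatogonia leave mitosis.

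DNA before an annotated start is shown for the members whose RefSeq promoter window held bases before any of their own GENCODE M21 exons in it. The build is GRCm38.p6, which has the mm10 coordinates. The member that differed most in each mutant, Kit and Dmrtb1, can thus be set beside the pair of SOHLH genes. Each run reads 5′ to 3′ on the gene's strand. Those of Kit and Sohlh2 were cut before a GENCODE M21 exon, upstream of the RefSeq gene span given with each gene. Those of Sohlh1 and Dmrtb1 were not cut and hold the 250 bases before the start in their RefSeq window. For Sohlh1 this is the start of the RefSeq gene span, but the span of Dmrtb1 reaches farther upstream. The Dmrtb1 run thus lies inside that span and is not the DNA before the whole RefSeq gene. Kit comes from chr5:75574737-75574915 (plus strand), Dmrtb1 from chr4:107684231-107684480 (minus), Sohlh1 from chr2:25847249-25847498 (minus) and Sohlh2 from chr3:55181794-55182027 (plus). Capitals mark matches, on either strand, to 3 motifs: the E-box CACGTG, bound by helix-loop-helix proteins, the nuclear receptor half-site AGGTCA, of the kind that retinoic acid receptors bind, and ACANTGT, the core of the DM domain motif.
Kit: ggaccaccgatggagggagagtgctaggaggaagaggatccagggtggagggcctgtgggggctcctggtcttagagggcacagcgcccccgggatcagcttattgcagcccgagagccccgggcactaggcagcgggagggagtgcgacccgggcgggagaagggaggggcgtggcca
Dmrtb1: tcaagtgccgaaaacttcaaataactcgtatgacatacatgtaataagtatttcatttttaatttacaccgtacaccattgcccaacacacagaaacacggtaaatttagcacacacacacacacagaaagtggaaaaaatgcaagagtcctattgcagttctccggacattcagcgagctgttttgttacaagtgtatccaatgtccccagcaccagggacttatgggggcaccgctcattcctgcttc
Sohlh1: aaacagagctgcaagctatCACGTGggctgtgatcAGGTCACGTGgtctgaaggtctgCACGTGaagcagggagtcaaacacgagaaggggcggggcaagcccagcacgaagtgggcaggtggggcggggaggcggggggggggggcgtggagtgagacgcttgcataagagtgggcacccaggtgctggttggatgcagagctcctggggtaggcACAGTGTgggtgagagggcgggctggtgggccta
Sohlh2: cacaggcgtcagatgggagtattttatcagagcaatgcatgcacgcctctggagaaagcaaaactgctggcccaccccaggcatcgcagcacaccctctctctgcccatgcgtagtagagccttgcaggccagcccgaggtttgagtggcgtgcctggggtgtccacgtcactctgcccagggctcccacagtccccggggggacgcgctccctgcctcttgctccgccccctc

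Sohlh1 held 3 matches to CACGTG, 1 of which overlaps its match to AGGTCA, and 1 match to ACANTGT. Over windows of 250 bases, 6.0% of 32851 promoters held CACGTG, 14.0% AGGTCA and 6.5% ACANTGT. In Kit, Sohlh2 and Dmrtb1 these letters did not occur in the bases shown. A match is a description and not a binding site. RefSeq windows were found for 5 of the 6 members. That of Stra8 began inside an annotated exon, so it held no bases before it and is not printed, and Dmrt1 had none.

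The libraries held 30439943 fragments in genes (Pld6 KO) to 63875934 (Dnmt3L heterozygote). Each targeted gene was lowest in its own KO library. Pld6 was at 0.334 FPKM in the Pld6 KO against 8.55 to 19.5 FPKM in the others, and Dnmt3l had 0 fragments in the Dnmt3L KO against 20 to 101 in the others. Dnmt3l at 1.27 FPKM in the heterozygote was not below the 0.980 FPKM of the Pld6 WT. All 15 L/Z markers were detected in each library, with Sycp3, a lateral element protein of the synaptonemal complex, between 285 and 782 FPKM. The libraries stood apart in markers of other cells. The 16 spermatid markers summed to 7540 FPKM (Dnmt3L heterozygote) and 363 FPKM (Pld6 WT) for the controls, but to 61.7 FPKM (Pld6 KO) and 86.1 FPKM (Dnmt3L KO) for the mutants, where 15 and 14 of them were more than 2-fold below both controls (protamine Prm1 at 2372 and 16.3 FPKM in the controls and 2.87 and 1.81 FPKM in the mutants). Sertoli markers were high in both Dnmt3L libraries, with sums of 8840 and 11703 FPKM against 334 in the Pld6 WT and 809 in the Pld6 KO. Of the 16, 1 (Fshr, the FSH receptor) was more than 2-fold above both controls for Dnmt3L KO, and 0 were for Pld6 KO. Within its own line the Pld6 KO was higher for 15 of the 16, and the Dnmt3L KO for all 16.

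All 6 genes were well expressed in every library. Levels are given in FPKM, fragments scaled to transcript length and library depth, which allows comparison between genes. Stra8 led in each library, between 108 and 187 FPKM, and Dmrt1 came second, between 100.5 and 158 FPKM. In the Dnmt3L KO library these 2 did not differ beyond counting error (95% intervals of 105.3 to 110.6 FPKM for Stra8 and 105.1 to 109.2 FPKM for Dmrt1). Dmrtb1 ranked 3 of 6 in the Dnmt3L heterozygote, at 92.5 FPKM, but 5 of 6 in both mutants. Kit was last in both controls and in the Dnmt3L KO, and ranked 3 in the Pld6 KO, where it stood level with Sohlh1 (86.4 FPKM each). Sohlh2 stayed between 27.9 and 41.4 FPKM.

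**Figure D1:**
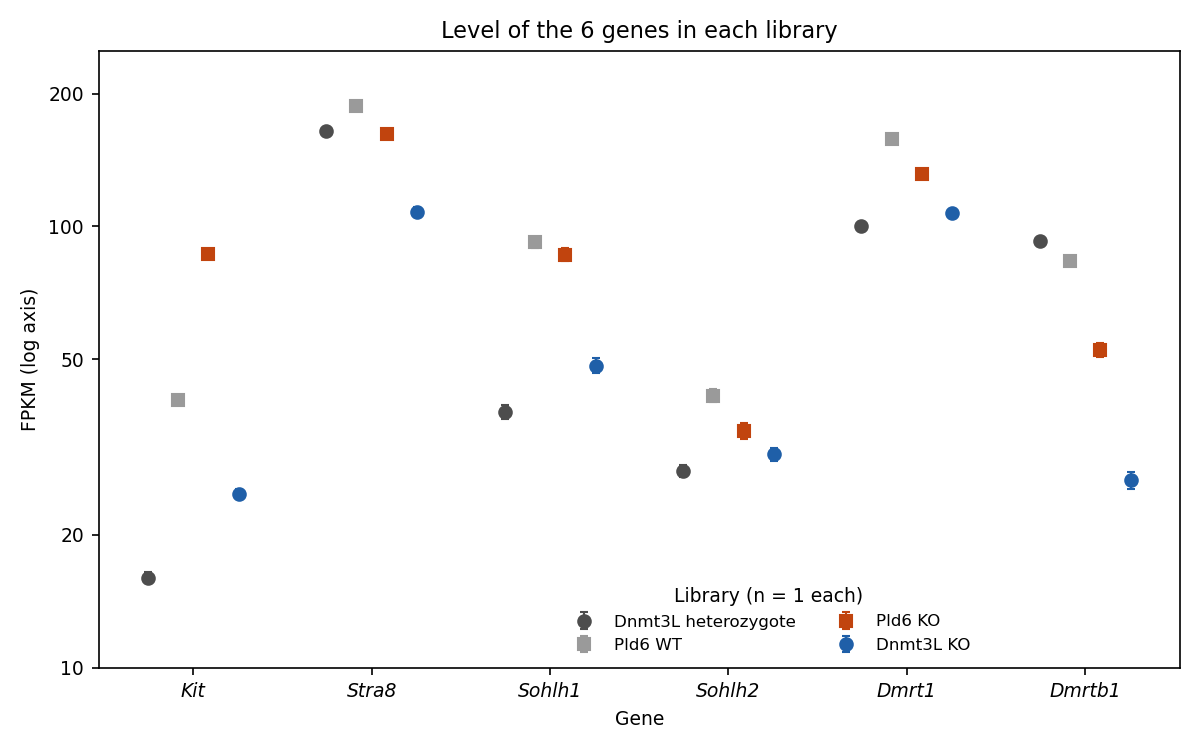
FPKM of the 6 genes (log axis) in the 4 libraries, 1 point per library with its 95% Poisson counting interval, mostly smaller than the point. Kit is highest in the Pld6 KO (86.4 FPKM) and Dmrtb1 lowest in the Dnmt3L KO (26.6 FPKM), while the controls are themselves apart for Kit, Sohlh1, Sohlh2 and Dmrt1.

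Each value rests on 2007 to 13603 fragments, which gives counting errors of 1.68% to 4.40% (half-width of the 95% interval). Counting was thus not what limited the comparisons. No mutant has a replicate, and the only spread available is that between the controls, which differ in genotype and line as well. The controls were 2.52-fold apart for Kit, 2.42-fold for Sohlh1, 1.57-fold for Dmrt1 and 1.48-fold for Sohlh2, each lower in the Dnmt3L heterozygote. They were close for Stra8 (1.14-fold) and Dmrtb1 (1.11-fold).

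To ask which genes changed in a mutant despite this spread, a gene was counted as beyond both controls when its FPKM + 1 lay more than 2-fold above, or more than 2-fold below, that of each of them. In the Pld6 KO, 1 of 6 members, Kit, was higher and 0 were lower, against 1.04% of all genes higher and 5.41% lower. In the Dnmt3L KO, 1 of 6, Dmrtb1, was lower and 0 were higher, against 5.78% of all genes lower and 2.14% higher. The count of 1 in each mutant is a description of these libraries with no test behind it.

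**Figure D2:**
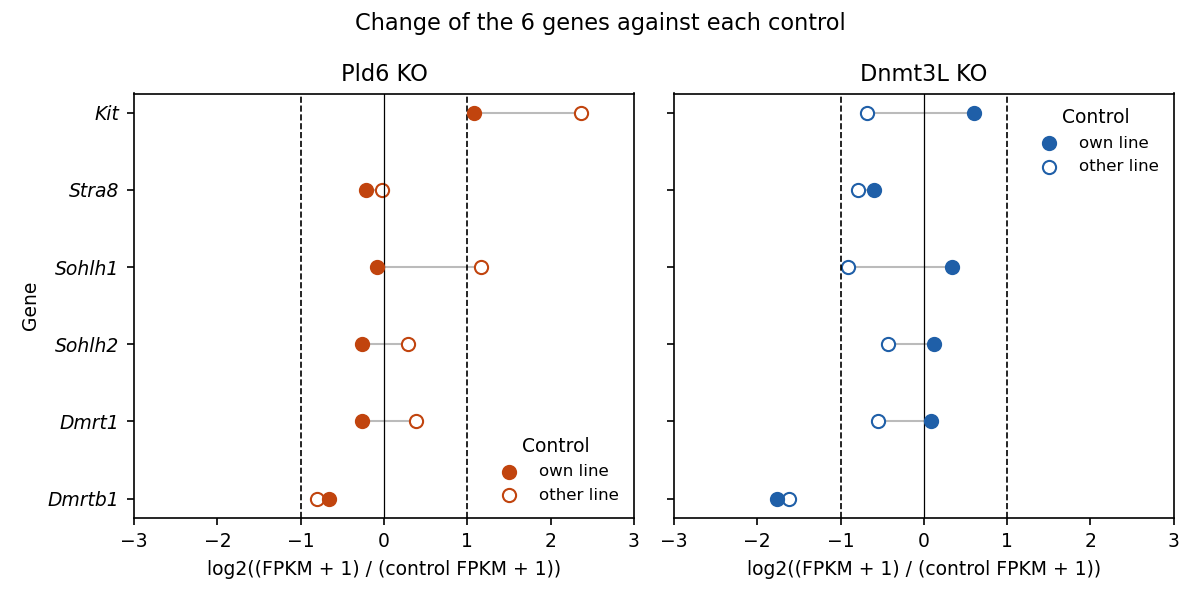
Log2 of the ratio of FPKM + 1 in each mutant to that in the control of its own line (filled) and of the other line (open), for the 6 genes. Dashed lines mark 2-fold. Both points lie past the line only for Kit in the Pld6 KO (2.11-fold against the nearer control) and Dmrtb1 in the Dnmt3L KO (0.326 of the nearer control).

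Kit (chr5:75574987-75656722, plus strand) encodes the receptor that marks differentiating spermatogonia. It was at 16.0 FPKM (heterozygote) and 24.8 FPKM (KO) in the Dnmt3L line, as compared with 40.4 FPKM (WT) and 86.4 FPKM (KO) in the Pld6 line. The Pld6 KO stood above both controls, whereas the Dnmt3L KO lay between them. Within its own line the Pld6 KO was 2.14-fold higher (95% counting interval 2.08 to 2.20), and it was 5.39-fold above the Dnmt3L heterozygote. The Dnmt3L KO was 1.55-fold above the heterozygote of its line (1.49 to 1.61). Scaled so that the 15 L/Z markers matched between libraries, a scale chosen after the values had been seen, Kit was 3.66-fold (Pld6 KO) and 2.26-fold (Dnmt3L KO) above its own line, and only the Pld6 KO was beyond both controls. Kit ranked above 95.6% of all genes in the Pld6 KO and above 72.9% in the Dnmt3L heterozygote. By edgeR's quasi-likelihood test on the counts, which takes its spread from the controls, the Pld6 KO change (log2 1.55, SE 0.71, n = 1 mutant and 2 control libraries) did not pass, with an adjusted p of 0.727. Of 18657 genes, 0 passed in either mutant (0%), although 1485 (Pld6 KO) and 1643 (Dnmt3L KO) had an unadjusted p under 0.05. DESeq2 called 15 higher and 957 lower genes in the Pld6 KO, and 17 higher and 919 lower in the Dnmt3L KO, with 0 members among them.

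Kit is also made by Leydig cells and mast cells, and a short form by spermatids. The 8 Leydig markers summed to 332 FPKM in the Dnmt3L heterozygote, 26.1 in the Pld6 WT, 238 in the Pld6 KO and 333 in the Dnmt3L KO. They were higher in the Pld6 KO than in its WT for 8 of 8 genes (Insl3, the Leydig hormone, 142 against 14.7 FPKM), as Kit was. In the Dnmt3L KO they were higher than in the heterozygote for 3 of 8 genes, while Kit was 1.55-fold higher. Of 7 mast cell markers, the proteases Cma1, Tpsb2 and Mcpt4 and the receptor chain Ms4a2 had 0 fragments in every library, and Cpa3 and Fcer1a were at 0.333 FPKM or less. Hdc, which other cells make too, was between 1.77 and 36.4 FPKM. In the Pld6 KO 1 Leydig marker (Hsd3b6) was beyond both controls, and 3 were in the Dnmt3L KO, all higher. The part of Leydig cells and spermatids in the Kit level was not tested.

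Sohlh1 (chr2:25842995-25847248, minus strand) encodes a helix-loop-helix factor of differentiating spermatogonia. Its level was 92.0 FPKM (WT) and 86.4 FPKM (KO) in the Pld6 line, and 38.0 FPKM (heterozygote) and 48.3 FPKM (KO) in the Dnmt3L line. The libraries paired by line and not by mutation, and both mutants lay between the controls. Relative to its own line, Sohlh1 was 0.939-fold in the Pld6 KO and 1.27-fold in the Dnmt3L KO.

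Sohlh2 (chr3:55182044-55209957, plus strand) encodes the partner and relative of SOHLH1. It was at 27.9 FPKM (heterozygote) and 30.5 FPKM (KO) in the Dnmt3L line, as compared with 41.4 FPKM (WT) and 34.4 FPKM (KO) in the Pld6 line. Both mutants again lay between the controls, at 0.832-fold (Pld6 KO) and 1.09-fold (Dnmt3L KO) of their own line. Sohlh1 exceeded Sohlh2 in all 4 libraries, by 1.36-fold in the Dnmt3L heterozygote, 2.22-fold in the Pld6 WT, 2.51-fold in the Pld6 KO and 1.59-fold in the Dnmt3L KO. Within each line this ratio moved little, by 1.13-fold in the Pld6 line and 1.16-fold in the Dnmt3L line.

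Dmrt1 (chr19:25505618-25604328, plus strand) encodes a DM domain factor that holds spermatogonia back from meiosis. It was at 158 FPKM (WT) and 131 FPKM (KO) in the Pld6 line, and 100.5 FPKM (heterozygote) and 107 FPKM (KO) in the Dnmt3L line. Both mutants lay between the controls, at 0.834-fold (Pld6 KO) and 1.07-fold (Dnmt3L KO) of their own line. Sertoli cells, the somatic support cells of the tubule, make Dmrt1 as well. The median of their 16 markers was 206 FPKM (heterozygote) and 252 FPKM (KO) in the Dnmt3L line, and 7.69 FPKM (WT) and 20.4 FPKM (KO) in the Pld6 line. The part of Sertoli cells in the level of Dmrt1 was not tested. On the scale of the L/Z markers Sohlh1, Sohlh2 and Dmrt1 were 1.43-fold to 1.86-fold above their own line in both mutants, so the directions below 1 in the Pld6 KO turned.

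Dmrtb1 (chr4:107676288-107704011, minus strand) encodes the DM domain factor that acts as spermatogonia pass from mitosis to meiosis. Its level was 92.5 FPKM (heterozygote) and 26.6 FPKM (KO) in the Dnmt3L line, as compared with 83.6 FPKM (WT) and 52.5 FPKM (KO) in the Pld6 line. Both mutants lay below both controls, which were close to each other. In the Dnmt3L KO Dmrtb1 stood at 28.7% of the heterozygote of its line (95% counting interval 0.274 to 0.301 as a fold), and in the Pld6 KO at 62.7% of its WT (0.599 to 0.657). The Pld6 KO did not cross the 2-fold line. For the Dnmt3L KO the edgeR change with the spread of the controls was -1.74 on the log2 scale (SE 0.65), with an adjusted p of 0.499. Dmrtb1 was past a 3-fold threshold also. On the scale of the L/Z markers the Dnmt3L KO was at 0.419-fold of its line and no longer beyond both controls, and the Pld6 KO was at 1.07-fold of its line.

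Germ cell stage markers moved beside Dmrtb1. The 15 pachytene markers summed to 1558 FPKM in the Dnmt3L heterozygote, 995 in the Pld6 WT, 198 in the Pld6 KO and 149 in the Dnmt3L KO, the same order of libraries as for Dmrtb1. Of these, 11 were lower than both controls in the Pld6 KO and 12 in the Dnmt3L KO (Ldhc, the testis lactate dehydrogenase, 623 and 304 FPKM in the controls against 1.91 and 2.80 FPKM in the Pld6 and Dnmt3L KO), and Acr had 0 fragments in the Pld6 KO. The L/Z markers summed to 1879, 3268, 1929 and 1153 FPKM in the Dnmt3L heterozygote, Pld6 WT, Pld6 KO and Dnmt3L KO. In the Pld6 KO 0 of the 15 were more than 2-fold beyond both controls, with a median log2 change of -0.30. There 5 of the 15 were below both by any amount. In the Dnmt3L KO 2, Spo11 and Syce1, were more than 2-fold lower than both, 13 of the 15 were below both by any amount, and the median log2 change of the list was -1.17. These medians are against the mean of controls that were themselves apart (median log2 -1.04, heterozygote over WT). Against each mutant's own line control the medians were -0.68 (Pld6 KO) and -0.52 (Dnmt3L KO), and 0 and 2 of the 15 markers were above that control. The part of these stages in the level of Dmrtb1 was not tested. In sorted bulk RNA, fewer cells of a type cannot be told apart from less RNA per cell.

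**Figure D3:**
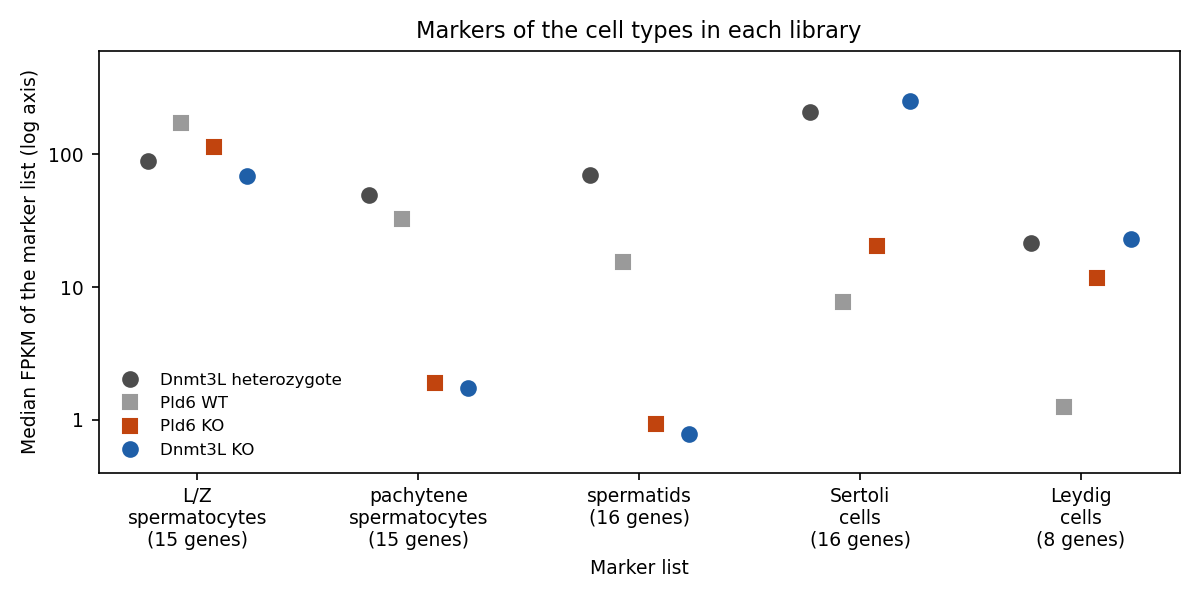
Median FPKM (log axis) of marker lists fixed for 5 cell types, 1 point per library. Pachytene and spermatid medians are below 2 FPKM in both mutants, Sertoli medians are at 206 and 252 FPKM in the Dnmt3L heterozygote and KO, and the Leydig median is lowest in the Pld6 WT (1.26 FPKM).

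Stra8 (chr6:34920163-34939344, plus strand) encodes the retinoic acid-induced factor of meiotic entry. It was at 187 FPKM (WT) and 162 FPKM (KO) in the Pld6 line, and 164 FPKM (heterozygote) and 108 FPKM (KO) in the Dnmt3L line. The Pld6 KO was within 2% of the lower control, and the Dnmt3L KO was below both, by less than 2-fold. Within its line the Dnmt3L KO stood at 0.657-fold (95% counting interval 0.638 to 0.677), and the Pld6 KO at 0.864-fold. On the scale of the L/Z markers these became 0.960-fold and 1.48-fold, so the direction in the Pld6 KO turned.

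Ratios between members in 1 library do not depend on its depth. Kit over Stra8, the differentiation receptor over the meiotic entry factor, was 0.216 (WT) and 0.534 (KO) in the Pld6 line, and 0.0975 (heterozygote) and 0.230 (KO) in the Dnmt3L line. It was thus higher in the mutant in both lines, 2.48-fold in the Pld6 line and 2.36-fold in the Dnmt3L line, with controls that were themselves apart by about as much. Dmrtb1 over Dmrt1 was 0.921 in the Dnmt3L heterozygote, 0.531 in the Pld6 WT, 0.399 in the Pld6 KO and 0.248 in the Dnmt3L KO, lower in both mutants than in either control. Kit over Dmrtb1, the 2 genes that differed most, was 0.173 (heterozygote) and 0.934 (KO) in the Dnmt3L line and 0.483 (WT) and 1.65 (KO) in the Pld6 line.

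To use both lines at once, the mutants were set together against the controls with line as a term, so that each mutant was read against the control of its own line. In edgeR, with p-values adjusted by Benjamini-Hochberg over 18657 genes, 1 of 6 members passed. Dmrtb1 was lower by a log2 change of -1.27 (SE 0.31, 2 mutants and 2 controls), with an adjusted p of 0.0470, as were 6.32% of all genes. Kit was higher in both mutants (log2 0.83, SE 0.26), but its adjusted p in edgeR of 0.117 did not pass, and 0.959% of all genes passed as higher. Stra8 was lower in both mutants (log2 -0.44, SE 0.26) with an adjusted p of 0.417 in edgeR. Sohlh1, Sohlh2 and Dmrt1 lay on opposite sides of 0 in the 2 lines, with fitted log2 values of 0.09, -0.10 and -0.12 and adjusted p of 0.871 to 0.904 in edgeR. In the same fit 13 of the 15 pachytene markers passed as lower, as Dmrtb1 did, and 3 of the 8 Leydig markers (Hsd3b6, Star and Lhcgr) as higher. Dmrtb1 did not pass with RLE size factors (adjusted p of 0.0641 in edgeR) or without the line term (0.503). DESeq2 called both Dmrtb1 (adjusted p of 0.0121, with 8.23% of all genes lower) and Kit (0.0196, with 3.24% higher). The fit has 1 residual degree of freedom. It treats 2 different mutations as 1 group, so its spread comes from how far the change differs between the lines and not from replicates.

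**Figure D4:**
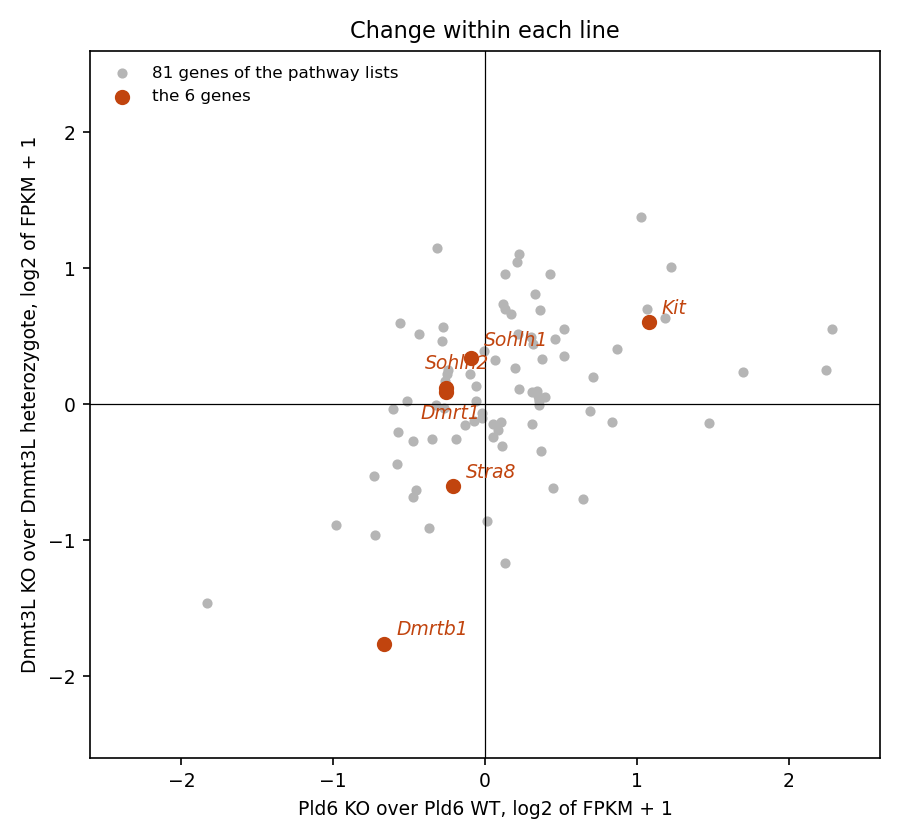
Log2 change of FPKM + 1 in the Pld6 KO over the Pld6 WT (horizontal) and in the Dnmt3L KO over the Dnmt3L heterozygote (vertical), for the 6 genes and 81 measured genes of the pathway lists, 1 point per gene. Kit lies above 0 in both lines (1.08 and 0.60), Stra8 and Dmrtb1 lie below 0 in both (-0.66 and -1.76 for Dmrtb1), and Sohlh1, Sohlh2 and Dmrt1 lie near 0.

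The surrounding pathways were described by lists, each by the number of genes beyond both controls. Among 10 genes of KIT ligand and its signalling, 0 were beyond both controls in the Pld6 KO and 2 were higher in the Dnmt3L KO, with median log2 changes of 0.20 and 0.41 (all genes with mean FPKM of at least 1 had medians of -0.05 and -0.02). Such list medians are against the mean of the controls and take in the gap between them. Against each mutant's own line control the medians were 0.21 and 0.54 (all such genes 0.01 and 0.06). Kitl, which encodes the KIT ligand of Sertoli cells, was at 15.6 FPKM (heterozygote) and 42.2 FPKM (KO) in the Dnmt3L line, as compared with 1.22 FPKM (WT) and 3.51 FPKM (KO) in the Pld6 line. It was above its own line's control in both mutants, 2.88-fold (Pld6 KO) and 2.70-fold (Dnmt3L KO), and passed the fit with line (log2 1.45, adjusted p of 0.0092 in edgeR). Ligand and receptor did not share their order of libraries, since Kitl was highest in the Dnmt3L KO and Kit in the Pld6 KO. Kitl was high where the Sertoli markers were high, and their part in it was not tested. Sos1, an exchange factor of the RAS pathway, was the other gene higher in the Dnmt3L KO (14.9 FPKM against 6.70 and 4.45 FPKM in the controls).

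Genes of the stages on either side of KIT were counted in the same way. Of 10 other genes of differentiating spermatogonia, 0 were beyond both controls in either mutant. Uchl1, a ubiquitin hydrolase of spermatogonia, was at 400 and 474 FPKM in the Dnmt3L heterozygote and Pld6 WT and at 468 and 372 FPKM in the Pld6 KO and Dnmt3L KO. Prss50, a serine protease gene, was at 204 and 342 FPKM in the controls and at 264 and 108 FPKM in the mutants, in the same order. The median log2 change of this list was -0.01 in the Pld6 KO and -0.30 in the Dnmt3L KO, against 1.58 for Kit in the Pld6 KO. Against the control of the own line it was -0.04 in the Pld6 KO and -0.005 in the Dnmt3L KO, with Kit at 1.08 in the Pld6 KO.

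Of 18 genes of undifferentiated spermatogonia, 2 were higher in the Pld6 KO and 0 lower, and in the Dnmt3L KO 1 was higher and 1 lower, with median log2 changes of 0.58 and -0.09. Against the control of the own line the medians were 0.23 and 0.27. Ret and Gfra1, the 2 parts of the receptor for the niche factor GDNF, were higher in the Pld6 KO. Ret was at 7.50 FPKM (WT) and 18.3 FPKM (KO) in the Pld6 line, and 5.65 FPKM (heterozygote) and 9.35 FPKM (KO) in the Dnmt3L line. Gfra1 was at 4.89 FPKM (WT) and 12.8 FPKM (KO), and 4.87 FPKM (heterozygote) and 10.8 FPKM (KO), higher in both mutants, and passed the fit with line (log2 1.24, adjusted p of 0.0346 in edgeR). Nanos3, an RNA-binding repressor, was the lower gene of the Dnmt3L KO (4.24 FPKM against 10.7 and 9.68 FPKM in the controls).

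Of 13 other regulators of meiotic entry, 11 were in the table (Meiosin and Meioc were not found under these symbols), and 0 of them were beyond both controls in either mutant, as for Stra8. Dazl, an RNA-binding protein that licenses germ cells for meiosis, was at 323 and 540 FPKM in the Dnmt3L heterozygote and Pld6 WT and at 363 and 280 FPKM in the Pld6 KO and Dnmt3L KO. Ccna2, a cyclin of S phase, was at 46.1, 77.4, 83.4 and 41.9 FPKM in the same order. Of 20 genes that make, break down or sense retinoic acid, 0 were beyond both controls. Where the controls lay far apart, as for Aldh1a1, this count could hardly call a rise in the Pld6 KO. Within its own line the Pld6 KO was higher for 12 of the 20 (Aldh1a1 5.17-fold), and the Dnmt3L KO for 8. Aldh1a1, a retinoic acid-making enzyme of Sertoli cells, was at 268 FPKM (heterozygote) and 395 FPKM (KO) in the Dnmt3L line, as compared with 13.3 FPKM (WT) and 68.9 FPKM (KO) in the Pld6 line. Crabp1, a retinoic acid-binding protein, was at 112 FPKM (heterozygote) and 93.5 FPKM (KO), and 197 FPKM (WT) and 154 FPKM (KO). The median log2 changes were 0.11 and -0.22 for meiotic entry and -0.01 and 0.09 for retinoic acid in the Pld6 KO and Dnmt3L KO. Against the control of the own line they were -0.10 and 0.02 for meiotic entry and 0.24 and -0.03 for retinoic acid.

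The relatives of the 4 transcription factors were set beside them. Of 6 DM domain paralogs, 0 were beyond both controls, with median log2 changes of -0.30 (Pld6 KO) and -0.16 (Dnmt3L KO). Against the control of the own line the medians were 0.23 (Pld6 KO) and -0.22 (Dnmt3L KO). Dmrtc2, a germ cell paralog, was at 50.7 FPKM (WT) and 25.2 FPKM (KO) in the Pld6 line, and 25.4 FPKM (heterozygote) and 13.3 FPKM (KO) in the Dnmt3L line. It was at 0.496-fold and 0.521-fold of its own line's control in the Pld6 KO and Dnmt3L KO, the same direction as Dmrtb1, with an adjusted p of 0.0676 in edgeR's fit with line. Dmrtc1a was at 8.42 FPKM (WT) and 25.2 FPKM (KO), and 206 FPKM (heterozygote) and 187 FPKM (KO), high in the libraries with high Sertoli markers. The 6 relatives and partners of the SOHLH factors had medians of 0.24 (Pld6 KO) and -0.36 (Dnmt3L KO), and of -0.02 and 0.26 against the own line. Of these 6, 1 was lower than both controls in each mutant. This was Figla, a helix-loop-helix gene known from oocytes, at 15.1 and 20.1 FPKM in the controls and 4.93 and 4.85 FPKM in the Pld6 KO and Dnmt3L KO. Its adjusted p in edgeR's fit with line was 0.0721. The E proteins that pair with such factors (Tcf3, Tcf4 and Tcf12) were not beyond both controls in either mutant.

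Last, the genes whose levels ran most alike to each member over the 4 libraries were found among 14416 genes with mean FPKM of at least 1, by the Euclidean distance of centred log2(FPKM + 1). These are descriptions from 4 points that share their libraries, with no test. Nearest to Kit was Abcc4, a membrane exporter (distance 0.0670), at 2.04, 6.32, 15.4 and 3.63 FPKM in the Dnmt3L heterozygote, Pld6 WT, Pld6 KO and Dnmt3L KO, followed by Met, another receptor tyrosine kinase (0.155). Nearest to Dmrtb1 were Lef1, a transcription factor of the WNT pathway (0.0535), at 6.25, 5.45, 3.00 and 1.17 FPKM, and Tprn (0.0792). Stra8 lay nearest to Eefsec (0.0317) and Wdtc1 (0.0330), Sohlh1 to Dzip3 (0.0400) and Zfp397 (0.0403), Sohlh2 to Stk35 (0.0261) and Dcdc2b (0.0325), and Dmrt1 to Larp4 (0.0236) and Slc25a25 (0.0281). Among the members, Sohlh2 and Dmrt1 were closest (0.109) and Kit and Dmrtb1 farthest apart (2.36).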

How the data were processed

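Per the labels, RNA of FACS-sorted L/Z spermatocytes was made into stranded polyA(+) libraries and read from 1 end for 50 bases. The authors used TopHat2 and Cuffdiff on mm10 (build from the submitters' processing notes, release numbers not given in the sources used here). The deposited table holds, for each gene and library, estimated counts of fragments, 98.0% to 98.3% of them whole numbers (within 1e-06), and the authors' FPKM. Of the genes, 28 had a value marked as failed, 0 of them members. FPKM were compared as log2((mutant + 1)/(mean of controls + 1)), which understates changes of low genes. Estimated counts were rounded and tested with edgeR 4.0.16 (R 4.3.3, TMM, filterByExpr, quasi-likelihood, adjusted p threshold 0.05), in 3 groups and with line as a term, and with DESeq2 1.42.0 as an alternative. The edgeR step in 3 groups was run on simulated data for the Pld6 KO against the controls. The fit with line was not. The simulated controls shared the same mean levels, without the gap seen between the real ones. That run thus does not show how the test performs at this spread. Intervals are Poisson and cover counting error only, not the spread between animals or libraries. Reads carried no molecular identifiers, so copies of 1 fragment could not be told apart. Nothing says how many animals a library holds, and no genotype has a replicate. The p-values rest on the gap between the controls (3 groups) or on how the change differs between the 2 lines (line as a term). They do not measure the spread between animals of 1 genotype. Members and lists were chosen with earlier results of these data known. All 6 members are named. From a list, up to 4 genes beyond both controls were named, by largest change with a highest FPKM of at least 5, or else up to 2 of the most abundant. Alternatives were a pseudocount of 0.1, a 3-fold threshold, TMM CPM, each control left out, genes with mean FPKM of at least 1, RLE size factors, no filter and no line term. Reads of retrotransposons and parental alleles were not analysed here.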

Additional observations from a re-analysis of the deposited data

Results flagged for a closer look

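Sohlh1, Sohlh2 and Dmrt1 moved one way in the Pld6 line and the opposite way in the Dnmt3L line, each mutant being set against the control of its own line. For Sohlh1 the log2 change of FPKM + 1 was -0.09 in the Pld6 line and 0.34 in the Dnmt3L line, a gap of 0.43. For Sohlh2 the changes were -0.26 and 0.12, a gap of 0.38, and for Dmrt1 -0.26 and 0.09, a gap of 0.35. With 1 library per genotype these differences were not tested, and each is smaller than the gap between the 2 controls for the same gene (log2 -1.25, -0.55 and -0.64, Dnmt3L heterozygote over Pld6 WT). On the scale of the L/Z markers all 3 genes were higher than their own line in both mutants.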

How the results depend on the processing

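Kit in the Pld6 KO and Dmrtb1 in the Dnmt3L KO kept their calls with TMM CPM. They also kept them with a pseudocount of 0.1 FPKM and with either control left out. Those settings can only loosen the rule for a gene already called, so they could not have removed either call. A 3-fold threshold left 0 members in the Pld6 KO. Scaling to the L/Z markers, chosen after seeing the data, left 0 in the Dnmt3L KO. Leaving out each control in turn gave 1 to 2 members in the Pld6 KO, where without the Pld6 WT Sohlh1 was counted too, and 1 to 1 in the Dnmt3L KO. With line as a term, edgeR called 1 member, RLE size factors 0, no line term 0 and DESeq2 2. Of 60 log2 values of members under alternatives, 15 turned their sign, 7 without a control and 7 under the L/Z scaling, and in none was the gene called. The median change of all genes moved by less than 0.1 (log2) between FPKM and CPM. A control cannot be left out of edgeR's fits, since 0 residual degrees of freedom would be left. Depth did not limit the members, but the number of libraries did. Counts over all genes moved as well. From 249 higher and 1297 lower genes in the Pld6 KO and 513 and 1386 in the Dnmt3L KO, the smaller pseudocount gave 989, 2297, 1233 and 2360, the 3-fold threshold 50, 854, 90 and 877, and the L/Z scaling 495 higher in the Pld6 KO and 3259 higher and 714 lower in the Dnmt3L KO. Leaving out the Dnmt3L heterozygote gave 1124 higher in the Pld6 KO and 2891 higher and 2099 lower in the Dnmt3L KO, and leaving out the Pld6 WT 1330 higher and 3209 lower in the Pld6 KO. Without the filter, edgeR called 8 higher and 429 lower genes (Pld6 KO) and 6 and 423 (Dnmt3L KO). For both mutants together, 179 higher and 1179 lower genes became 0 and 0 without the line term, with 1706 at an unadjusted p under 0.05, and DESeq2 called 563 higher.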
